A study of Sus scrofa with 12 samples.

Results

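The transcription factors at the center of the heart muscle gene program were followed in the left ventricle of 6 infarcted pigs. The set holds 10 genes, GATA4, GATA6, NKX2-5, TBX5, TBX20, MEF2A, MEF2C, MEF2D, HAND1 and HAND2, chosen by name among the 35682 genes of the count files. All 10 were found by their symbols and all 10 passed the filter on low counts, as did 13844 genes in all. NKX2-5 and HAND1 were lower in the border zone of every animal, as were 11.1% of all genes tested. The mean over heart muscle markers was also lower there in 6 of 6 animals. Relative to it the median differences of NKX2-5 and HAND1 were -0.02 and -0.09 log2 units. TBX20 was very low in the remote zone of 2 animals. The levels of the zones overlapped for every gene but NKX2-5, and 0.701% of all genes were lower in the border zone without overlap. None of the 10 passed the adjusted threshold of edgeR when the zones were compared.

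The animals were female Yorkshire pigs of 10 to 12 weeks, numbered 1022, 1322, 1323, 1623, 1922 and 3622. In each, the left anterior descending coronary artery was closed with a balloon for 60 min. Tacrolimus (0.75 mg/kg per day), mycophenolate mofetil (500 mg per day) and prednisolone (20 mg per day) were given from day 9 after the occlusion to all animals. On day 14 the chest was opened and the heart surface received either vascular organoids, built of human endothelial progenitor and smooth muscle cells and held in place with fibrin sealant, or the sealant alone. Hearts were taken 28 days later. The labels do not say which animal received which, so every zone mixes both treatments and the treatments were not compared. From each heart 1 library came from the border zone, the tissue next to the infarct, and 1 from the remote zone in the posterior wall, which gives 6 libraries per zone and 12 in all. All 12 libraries come from infarcted hearts of immunosuppressed animals.

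These proteins bind DNA and act together. GATA4 and GATA6 are zinc finger factors, NKX2-5 is a homeodomain factor, TBX5 and TBX20 are T-box factors, MEF2A, MEF2C and MEF2D are MADS-box factors, and HAND1 and HAND2 are basic helix-loop-helix factors that pair with E proteins. They set up the heart in the embryo, and in the adult ventricle they keep the genes of contraction and conduction active. GATA4, TBX5 and MEF2C are also the classical combination used to turn fibroblasts into cells that resemble heart muscle.

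Total counts on genes ran from 15130210 to 31618680 per library. Heart muscle markers were abundant in all 12 libraries, with TNNI3, cardiac troponin I, between 1072 and 20450 CPM (a count scaled for library size, here with TMM factors). The border zone library of animal 1022 stood apart, with the lowest mean over the cardiomyocyte marker list (9.87 log2 CPM, the others 11.69 or more) and the highest over the fibroblast and matrix list (10.16 log2 CPM). The remote zone libraries of animals 1322 and 3622 stood apart in another way, with the highest mitochondrial shares of counts (21.4% and 33.5%, the others between 5.69% and 17.3%). In these same libraries long transcripts were low, by log2 deviations from each gene's median over the 12 libraries. Genes of 8 kb or longer had median deviations of -0.37 and -0.51, and genes under 1.5 kb 0.36 and 0.48. The border zone libraries of animals 1022 and 1323 tilted the other way. They had 0.21 and 0.19 for genes of 8 kb or longer, and -0.43 and -0.185 for genes under 1.5 kb. The border zone library of animal 3622 had counts on 28024 genes, against 16932 to 20148 in the others.

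The DNA in front of NKX2-5 and HAND1 is shown because these are the pair that were lower in every animal. Each run is the 250 bases before the gene start of RefSeq on the pig genome Sscrofa11.1, on the strand of the gene, which is the plus strand for both. Capitals would mark a match to a motif of the GATA, NKX, T-box or MEF2 families or to the TATA box on either strand, and neither run held one. The bases printed lie at chr16:51085764-51086013 for NKX2-5 and at chr16:68679727-68679976 for HAND1.
NKX2-5: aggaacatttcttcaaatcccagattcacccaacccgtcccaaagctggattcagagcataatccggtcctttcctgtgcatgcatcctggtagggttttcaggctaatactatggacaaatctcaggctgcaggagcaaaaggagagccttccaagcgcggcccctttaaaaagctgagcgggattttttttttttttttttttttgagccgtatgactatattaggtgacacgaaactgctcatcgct
HAND1: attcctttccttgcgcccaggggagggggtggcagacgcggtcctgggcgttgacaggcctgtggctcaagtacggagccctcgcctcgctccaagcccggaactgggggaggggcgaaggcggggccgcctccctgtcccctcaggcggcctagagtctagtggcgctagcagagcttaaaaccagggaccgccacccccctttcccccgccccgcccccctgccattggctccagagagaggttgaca

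Such stretches were searched for 9 of the 10 genes and compared with 19542 promoters of the same length. The GATA motif AGATAA was found in 0 of the 9 genes and in 8.08% of promoters, and the NKX motif AAGTG in 0 and 35.1%. The T-box motif AGGTGT was found in 0 of the 9 and 10.3% of promoters, and the MEF2 motif TATTTATA in 0 and 1.17%. TATAAA, the letters of the TATA box, was found in 1 of the 9, MEF2A, and in 9.76% of promoters. The MEF2A matches begin at -223 and, on the opposite strand, at -145 relative to the gene start. The E-box CANNTG was found in 5 of the 9, GATA6, TBX5, TBX20, MEF2A and MEF2C, and in 61.9% of promoters. NKX2-5, HAND1, HAND2 and MEF2D held none of the 6 motifs. A match is a run of letters only, and no match says only that the letters are not in this window.

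Levels between genes were compared per kilobase of exon, as CPM divided by the summed exon length from RefSeq. NKX2-5, whose exons sum to 1.66 kb, had the highest level of the 10 in 12 of 12 libraries, with 154 to 171 CPM per kb in the remote zone (median 167). GATA6 followed at a remote zone median of 61.9 CPM per kb (48.1 to 121). NKX2-5 and GATA6 did not overlap there.

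Next in the remote zone came HAND2 with a median of 51.7 CPM per kb, MEF2A with 46.0, GATA4 with 33.8 and MEF2D with 30.0. HAND1 had a median of 16.7 CPM per kb, TBX5 14.5, TBX20 8.59 and MEF2C 8.22. From GATA6 down, the range of each gene overlapped those of its neighbours in this order. Genes farther apart did not all overlap, since the lowest GATA6 library (48.1 CPM per kb) lay above the highest of GATA4 (44.4) and MEF2D (35.5). TBX5 ranked 7 or 8 of the 10 in all 12 libraries. In the border zone the medians ran from 119 CPM per kb for NKX2-5 to 6.39 for TBX20, and TBX20 was the lowest of the 10 in 8 of the 12 libraries. The longest exon models, such as the 8.72 kb of MEF2C, count every annotated isoform, and a shorter isoform in use would raise the level per kb.

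**Figure D1:**
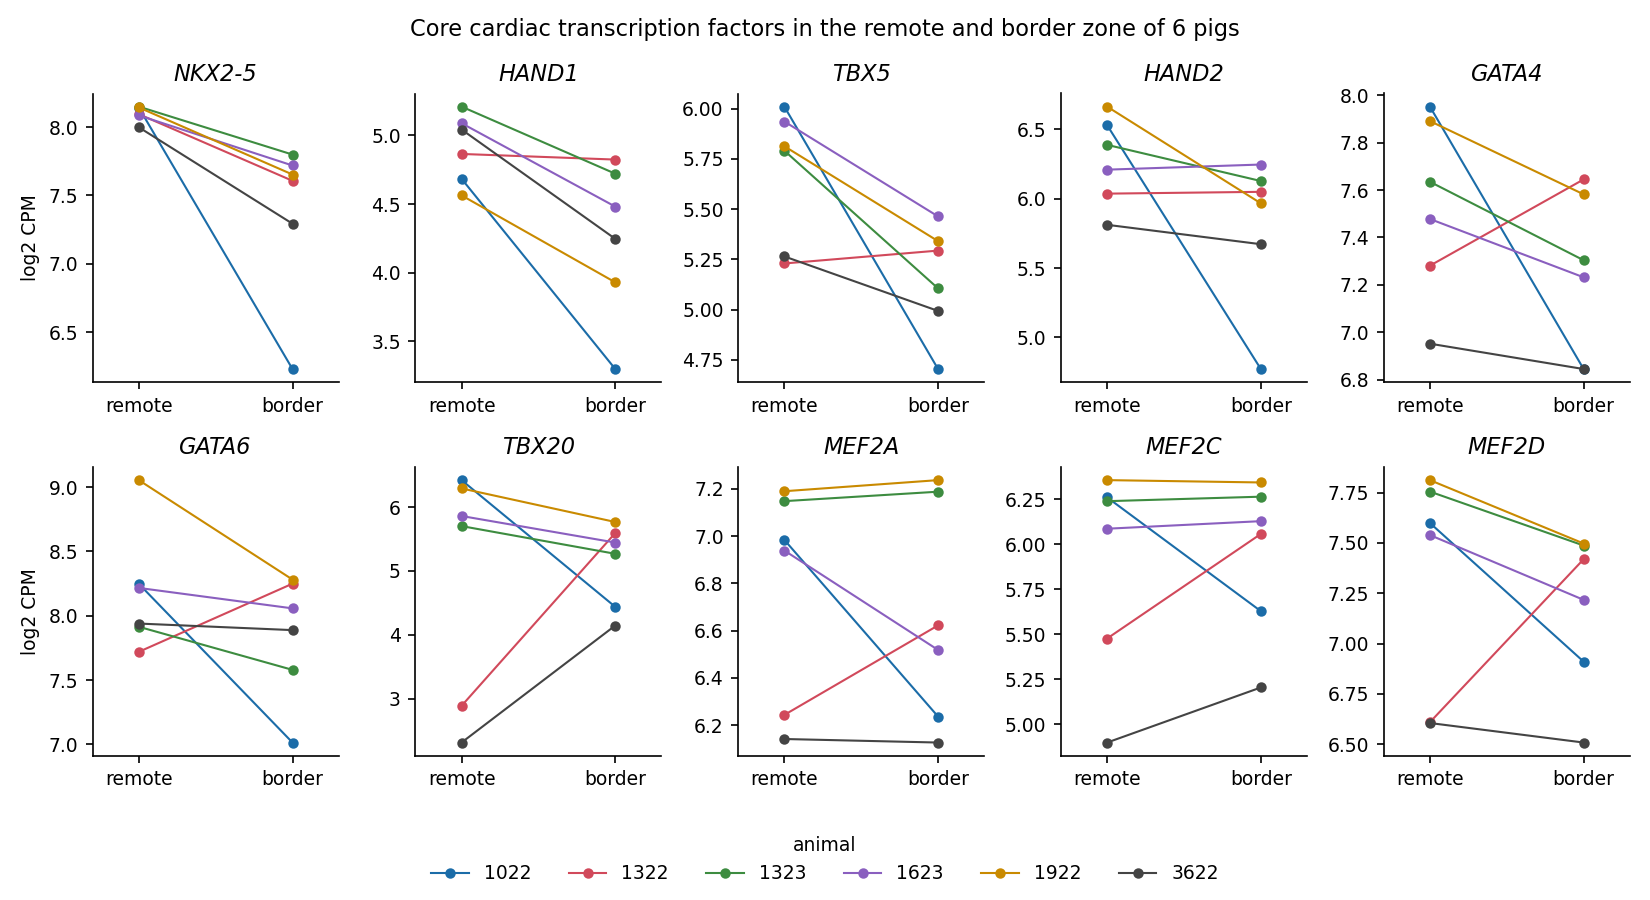
Log2 CPM of each of the 10 genes (vertical axis, scaled per panel) in the remote and the border zone library of the 6 pigs, with a line joining the libraries of 1 animal. All 6 lines fall for NKX2-5 and HAND1, while the remote zone points of animals 1322 and 3622 lie far below the others for TBX20.

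Border zone and remote zone were compared to ask whether the regulators of heart muscle identity differ next to the infarct. The test was edgeR's quasi-likelihood test over all 13844 genes with Benjamini-Hochberg adjustment, and a gene was called at an adjusted p under 0.05. Of the 10 genes, 0 were called, where 0.0144% of all genes tested were called lower in the border zone and 2.06% higher. With the animal as a block, which compares the zones within each pig, 0 of 10 were called as well, beside 0.00722% of all genes lower and 0.289% higher. At an unadjusted p under 0.05 in edgeR, 3 of the 10 were lower (NKX2-5, HAND1 and TBX5) and 0 higher, beside 7.78% of all genes lower and 17% higher. DESeq2's Wald test called 2 of the 10 lower, NKX2-5 and TBX5, beside 1.83% of all genes lower and 8.42% higher. The median log2 fold change was -0.35 over the 10 genes and 0.04 over all genes tested, and 9 of the 10 were negative. The median of the 10 was -0.18 without animal 1022, with 7 negative, and -0.60 without animals 1322 and 3622, with 10 negative. With the mean of the cardiomyocyte marker list as a covariate it was -0.11, with 8 negative and 0 under an unadjusted p of 0.05 in edgeR. Scaling by library totals alone raised the median of all genes to 0.32 and that of the 10 to -0.15, with 7 of the 10 negative and 0 of them under an unadjusted p of 0.05 in edgeR. On that scale NKX2-5 stood at -0.38, HAND1 at -0.33 and TBX5 at -0.30.

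NKX2-5, the earliest marker of the heart lineage and a regulator of conduction and contraction genes, ran from 74.9 to 223 CPM in the border zone (median 198) and from 256 to 284 CPM in the remote zone (median 278). The zones did not overlap, which held for 0.701% of all genes in this direction. The remote zone libraries lay close together and the border zone library of animal 1022 was far below the rest.
The log2 fold change was -0.64 (standard error 0.23, adjusted p = 0.119), and with the animal as a block it was -0.71 (adjusted p = 0.105). Border zone NKX2-5 was lower in 6 of 6 animals, at 0.265 of the remote zone level in animal 1022 and at 0.613 to 0.784 of it in the others (two-sided exact permutation test of sign changes within animals, p = 0.0312, the smallest that 6 animals allow). Without animal 1022 the log2 fold change was -0.48 (adjusted p = 0.123 in edgeR), and the blocked fit then gave -0.48 with adjusted p = 0.049. That blocked fit called 287 of 13831 genes lower. Blocked fits without any other 1 animal gave an adjusted p of 0.103 to 0.233 for NKX2-5. Without animals 1322 and 3622 the unblocked edgeR fit gave -0.67 (adjusted p = 0.238). DESeq2 gave -0.68 with adjusted p = 0.0354.

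HAND1, a ventricular factor of the early heart, had the lowest median CPM of the 10 in both zones. It ran from 9.75 to 28.3 CPM in the border zone (median 20.6) and from 23.6 to 36.9 CPM in the remote zone (median 31.0). The zones overlapped across animals but not within them, since HAND1 was lower in 6 of 6 animals.
The ratio of border to remote zone was between 0.381 and 0.972 (the same exact permutation test, p = 0.0312). Being lower in every animal held for 2 of the 10 genes, NKX2-5 and HAND1, and for 11.1% of all genes tested. The log2 fold change of HAND1 was -0.59 (standard error 0.23, adjusted p = 0.144), and -0.66 in the blocked fit (adjusted p = 0.0814). Without animal 1022 the blocked fit gave -0.52 with adjusted p = 0.0475, in a fit that called 287 of 13831 genes lower. Blocked fits without any other 1 animal gave an adjusted p of 0.0698 to 0.227 for HAND1. The annotated HAND1 gene lies wholly inside a long noncoding RNA on the other strand, and the libraries did not record strand, so reads of both cannot be told apart.

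HAND2, which takes part with HAND1 in the growth of the ventricles, ran from 27.2 to 75.9 CPM in the border zone (median 64.3) and from 56.1 to 101 CPM in the remote zone (median 78.9). It was lower in 4 of 6 animals, and in animals 1322 and 1623 the zones differed by 0.01 and 0.04 on the log2 scale. The log2 fold change was -0.42 (standard error 0.23, adjusted p = 0.266), and without animal 1022 it was -0.23. It was -0.19 with library totals only and -0.092 with the mean of the cardiomyocyte marker list as a covariate.

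TBX5, a partner of GATA4 and NKX2-5 best known for limb and septum defects when 1 copy is lost, ran from 26.0 to 44.1 CPM in the border zone (median 36.8) and from 37.5 to 64.4 CPM in the remote zone (median 55.7). Its border zone level was lower in 5 of 6 animals, with animal 1322 the exception at a ratio of 1.05 (exact permutation test, p = 0.0625). The log2 fold change was -0.54 (standard error 0.18, adjusted p = 0.105), -0.52 in the blocked fit (adjusted p = 0.107) and -0.58 in DESeq2 (adjusted p = 0.0262). Without animals 1322 and 3622 it was -0.71 (95% confidence interval -1.12 to -0.31, adjusted p = 0.0922).
Noncoding RNAs on the other strand also overlap TBX5 by 2229 bases and MEF2C by 15694 bases. A protein-coding gene on the other strand overlaps GATA6 by 47 bases, so reads of these stretches carry the same doubt.

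GATA4, which activates natriuretic peptide and sarcomere genes, ran from 115 to 200 CPM in the border zone (median 154) and from 124 to 247 CPM in the remote zone (median 188). GATA6, its close relative, ran from 129 to 311 CPM in the border zone (median 251) and from 211 to 532 CPM in the remote zone (median 271). Both overlapped broadly between the zones and both were lower in 5 of 6 animals, the exception being animal 1322 with ratios of 1.29 and 1.44.
The log2 fold changes were -0.30 for GATA4 (standard error 0.21, adjusted p = 0.405) and -0.35 for GATA6 (standard error 0.27, adjusted p = 0.439). Without animal 1022, whose border zone library had the lowest GATA6 level, they were -0.13 and -0.22. Without animal 1922, whose remote zone library had the highest GATA6 level, GATA6 stood at -0.21. With library totals only GATA4 and GATA6 were at -0.063 and -0.11, and with the mean of the cardiomyocyte marker list as a covariate at -0.13 and -0.033. Without animals 1322 and 3622 they were -0.49 and -0.62 (adjusted p = 0.208 and 0.281).

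The MEF2 factors, which switch on muscle structural and metabolic genes and are held in check by class II histone deacetylases, did not pass the test in either edgeR fit. MEF2A ran from 69.7 to 151 CPM in the border zone (median 95) and from 70.5 to 146 CPM in the remote zone (median 125). MEF2C ran from 36.8 to 81.2 CPM (median 68.2) and from 29.8 to 81.9 CPM (median 71.7), and MEF2D from 91.0 to 181 CPM (median 160) and from 97.3 to 225 CPM (median 190), in the border and remote zone. The ranges of the zones nearly coincided for MEF2A and MEF2C, while 4 of the 6 remote zone libraries of MEF2D lay above its highest border zone library. MEF2D was lower in 5 of 6 animals, MEF2A in 3 and MEF2C in 2.
The log2 fold changes were -0.11 for MEF2A (95% confidence interval -0.65 to 0.43), 0.02 for MEF2C (-0.54 to 0.57) and -0.19 for MEF2D (-0.74 to 0.36), with the sign of MEF2A and MEF2D turning with library totals only and that of MEF2C with DESeq2 size factors. These intervals leave room for differences of either sign. Without animals 1322 and 3622 the values were -0.22, -0.13 and -0.39, and with a length slope per library (the slope of its deviations on exon length) as a covariate they were -0.41, -0.30 and -0.49 (adjusted p = 0.402, 0.456 and 0.376). Without animal 1022 they were 0.00097, 0.15 and -0.092. In animals 1323 and 1922 the MEF2A and MEF2C levels of the zones differed by at most 0.05 on the log2 scale.

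**Figure D2:**
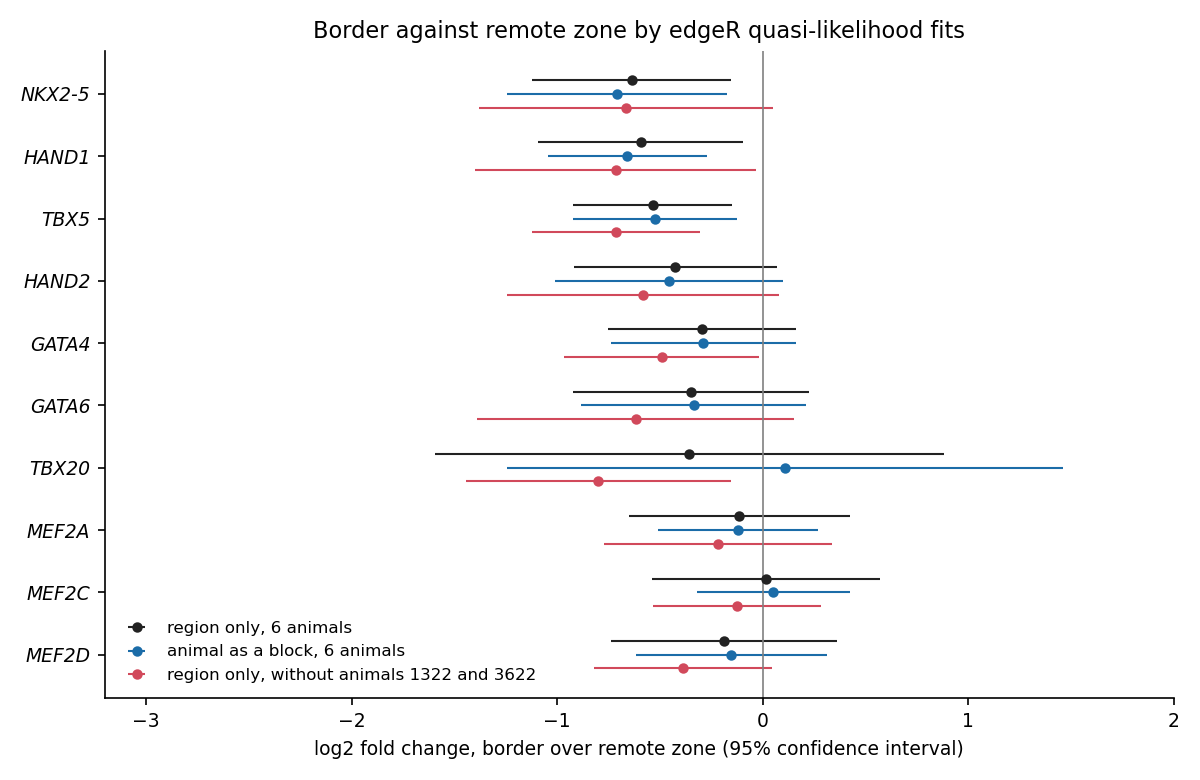
Log2 fold change of border over remote zone (horizontal axis) with its 95% confidence interval for each of the 10 genes, in the fit with region only, the fit with the animal as a block and the fit without animals 1322 and 3622. The intervals of NKX2-5, HAND1 and TBX5 lie below 0 in the first 2 fits, and that of TBX20 spans 0 in them. Without the 2 animals the TBX20 interval lies below 0. These are the animals with more TBX20 in the border zone, left out after their values were seen, so the shift is no independent result.

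TBX20, which keeps adult heart muscle contracting and restrains genes of other lineages, had the widest spread of the 10. It ran from 17.6 to 54.3 CPM in the border zone (median 40.9) and from 4.88 to 85.7 CPM in the remote zone (median 55.0). The remote zone libraries of animals 1322 and 3622 held 7.31 and 4.88 CPM, from 151 and 73 counts, while the other 4 held 52.0 to 85.7 CPM from 1506 to 2164 counts. Counting error is far smaller than that gap, with exact 95% Poisson intervals of 6.20 to 8.58 CPM and 3.83 to 6.14 CPM for the low libraries, and these intervals cover counting error only.
The border zone of the same 2 animals held more TBX20 than their remote zone, at ratios of 6.59 and 3.61, and the other 4 animals held less, at ratios of 0.252 to 0.749. The log2 fold change was -0.36 (standard error 0.58, adjusted p = 0.740), turned to 0.11 with the animal as a block (adjusted p = 0.916), and was -0.80 without the 2 animals (95% confidence interval -1.45 to -0.15, adjusted p = 0.155). With the length slope as a covariate it was -0.78, and -1.10 with the block as well (adjusted p = 0.406 and 0.764). Without animal 1022 it was 0.015, and with library totals only -0.21.

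The 2 libraries were low for most of the set. GATA4, TBX5, TBX20, MEF2A, MEF2C, MEF2D and HAND2 lay below all 4 other remote zone libraries in both, which is 7 of 10 genes, against 26.6% of all genes tested. By exon length that share was 12.4% for 1.5 to 3 kb, 31.1% for 3 to 5 kb, 42.5% for 5 to 8 kb and 49.9% for 8 kb or longer. The 3 members with the longest exon sums had the lowest ratios. The mean of the 2 libraries over the mean of the other 4 was 0.089 for TBX20 (6.40 kb of exon), 0.475 for MEF2D (6.33 kb) and 0.492 for MEF2C (8.72 kb), but 0.944 for NKX2-5 (1.66 kb) and 1.03 for HAND1 (1.86 kb). HAND2, the shortest member (1.52 kb), stood at 0.692 and lay below all 4 other libraries.
On the log2 scale TBX20 stood at -3.49 where genes of 5 to 8 kb had a median of -0.32, and by this ratio it was the 13th lowest of 11726 tested genes with a symbol. MEF2A, with 2.71 kb of exon, stood at -0.88 against a median of 0.15 for genes of 1.5 to 3 kb. These ratios describe 2 libraries that were set beside the others after their values were seen, and the part that transcript length or RNA quality plays in them was not tested.

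**Figure D3:**
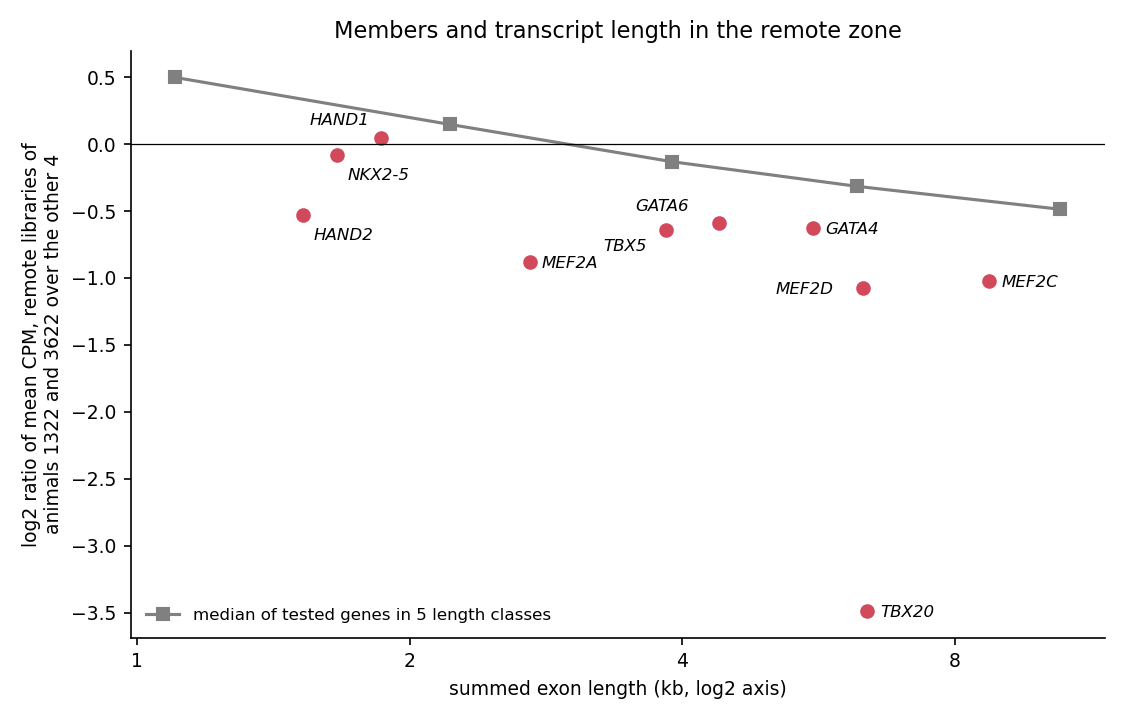
Log2 ratio of mean CPM in the remote zone libraries of animals 1322 and 3622 over the other 4 (vertical axis) against summed exon length in kb (horizontal axis, log2), for the 10 genes (red) and as the median of tested genes in 5 length classes (grey). The grey medians fall from 0.50 to -0.49 with length, and TBX20 lies at -3.49.

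The mean over the cardiomyocyte list was lower in the border zone of 6 of 6 animals, and the means over the matrix and macrophage lists were higher in 6 of 6. Of the 14 cardiomyocyte markers tested, 0 were called (0.0144% of all genes were called lower) and 14 had a negative log2 fold change (median -0.53), with a summed level of 16100 to 88710 CPM in the border zone and 75060 to 122200 CPM in the remote zone. Without animal 1022 that median was -0.30, with 12 negative and 2 positive. Of the 15 fibroblast and matrix markers tested, 11 were called higher in edgeR (2.06% of all genes) and 1 with the animal as a block (0.289%), with sums of 4907 to 76570 CPM against 2189 to 4667 CPM. Of the 10 macrophage markers, 3 were called higher and 0 with the block, beside the same shares, with sums of 152 to 2171 CPM against 116 to 251 CPM. For both of these lists 0 were called without any 1 of animals 1323, 1623, 1922 and 3622, and without animal 1022 the macrophage list had 0 called and a median of 0.65 in place of 1.68. Of single genes tested, 11.1% were lower and 11.7% higher in every animal.
In such bulk tissue fewer cells of a type and less RNA per cell cannot be told apart. With the mean of the cardiomyocyte list as a covariate the log2 fold change of NKX2-5 was -0.26 (adjusted p = 0.971), that of HAND1 -0.26 and that of TBX5 -0.39 (adjusted p = 0.999 and 0.894).

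Each gene was therefore also set against the 14 cardiomyocyte markers within its own library. On this scale the border minus remote difference of NKX2-5 had a median of -0.02 log2 units, higher in 3 of 6 animals, and that of HAND1 a median of -0.09, higher in 2 of 6. The TBX5 median was -0.01, higher in 3 of 6 animals. Their means were -0.027, 0.033 and 0.17, and without animal 1022 they were -0.11, -0.14 and 0.0079. The NKX2-5 values lay on both sides of 0 on this scale.
GATA4, MEF2C and MEF2D were higher in 6 of 6 animals relative to the list, by median differences of 0.28, 0.56 and 0.40 and mean differences of 0.40, 0.74 and 0.55 (two-sided exact permutation test, p = 0.0312 each, for 10 genes tested). Without animal 1022 the means were 0.25, 0.56 and 0.34. That pattern was common, since 37.1% of all genes tested were higher in every animal on this scale, so 3 of 10 is near the background. No member was lower in every animal on it, beside 0.39% of all genes. The choice of reference mattered. Against RYR2, the calcium release channel, and ACTN2, sarcomeric actinin, NKX2-5 was lower in 6 of 6 animals by a mean of 0.49 log2 units, given as -0.49 border minus remote (exact permutation test, p = 0.0312), as were 1.8% of all genes, and MEF2C and MEF2D differed by 0.28 and 0.09 (p = 0.281 and 0.906 in the same exact test). GATA4 turned to -0.057 and was higher in 2 of 6 animals (p = 0.719 in the same exact test). RYR2 and ACTN2 are themselves among the 14 markers, so this reference is not independent of the list. Their own log2 fold changes were -0.079 and -0.26, beside a median of -0.53 over the list.

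**Figure D4:**
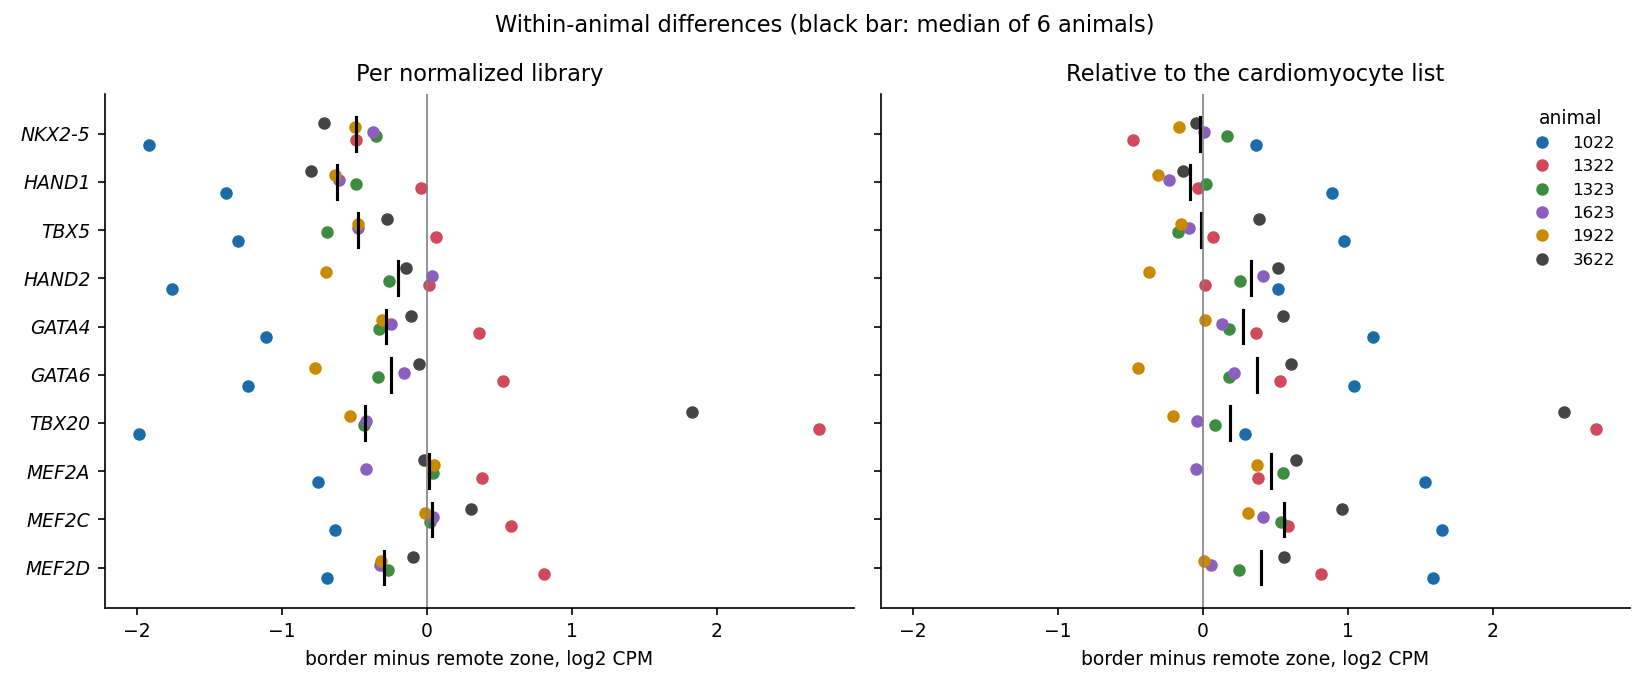
Border minus remote zone difference in log2 CPM (horizontal axis) for each of the 10 genes in each of the 6 pigs, per normalized library (left) and relative to the mean of 14 cardiomyocyte markers (right), with the median as a black bar. The NKX2-5 median moves from -0.49 on the left to -0.02 on the right, and animal 1022 changes side for all 10 genes.

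The proteins that work with these factors were read next, among them E proteins, ID inhibitors, FOG cofactors, histone deacetylases and SRF coactivators. Of 27 genes on that list 25 were tested and 0 were called in either edgeR fit, with 5 higher and 1 lower at an unadjusted p under 0.05 in edgeR and 2 called in DESeq2 (ID2 higher and CITED2 lower). Of all genes tested, 17% were higher and 7.78% lower at that unadjusted threshold in edgeR, and 8.42% were called higher and 1.83% lower in DESeq2, so these counts are near the background. Without animal 1022 the unadjusted counts were 1 higher and 1 lower, and with library totals only 9 and 0. The median log2 fold change was 0.21, beside 0.04 over all genes. It was 0.046 without animals 1322 and 3622 (12 negative, 13 positive) and turned to -0.14 with the length slope as a covariate (16 negative).
ID2, which binds E proteins and keeps basic helix-loop-helix factors off DNA, ran from 9.81 to 39.5 CPM in the border zone and from 6.19 to 10.04 CPM in the remote zone. Its log2 fold change was 1.25 (standard error 0.32) with an adjusted p of 0.0538 in the unblocked and 0.0807 in the blocked fit, and it was higher in 6 of 6 animals, as were 11.7% of all genes tested. MRTFA, a coactivator of SRF, and TCF4, an E protein, were also higher in 6 of 6 animals, by log2 fold changes of 0.97 and 0.76 (adjusted p = 0.157 and 0.177). Without animal 1022 the values of ID2, MRTFA and TCF4 were 0.80, 0.38 and 0.49, and with the cardiomyocyte list as a covariate 0.56, 0.10 and 0.25.

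Of 35 other heart transcription factors 32 were tested and 0 were called in edgeR, with 10 higher and 2 lower at an unadjusted p under 0.05 and 6 called higher in DESeq2, beside the same shares of all genes (17% and 7.78% in edgeR, and 8.42% called higher in DESeq2). The 10 higher fell to 4 without animal 1022 and to 4 without animal 1323. The median log2 fold change was 0.32, and it was 0.16 without animal 1022, 0.57 without animals 1322 and 3622 and 0.09 with the cardiomyocyte list as a covariate. FOXC2, a vessel and valve factor, TBX18, an epicardial and mural cell factor, and NR2F1, a nuclear receptor, had the largest log2 fold changes, at 2.20, 2.11 and 1.78 (adjusted p = 0.0734, 0.0605 and 0.117). All 3 were rare, with border zone medians of 1.92, 4.22 and 4.17 CPM and remote zone medians of 0.693, 1.34 and 1.11 CPM. Without animal 1022 the log2 fold changes were 1.10, 1.25 and 1.09, and with the cardiomyocyte list as a covariate 0.73, 0.83 and 0.91.

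Known targets of the core factors in heart muscle were mixed. Of 39 targets 34 were tested and 0 were called in edgeR, with 4 higher and 4 lower at an unadjusted p under 0.05 and 1 called in DESeq2 (TNNI3, lower), beside 17% higher and 7.78% lower among all genes in edgeR and 1.83% called lower in DESeq2. Those 4 and 4 were 2 and 2 without animal 1323. The median log2 fold change was -0.27 and 24 of the 34 were negative. It was -0.15 without animal 1022 (20 negative) and -0.032 with library totals only (19 negative), and turned to 0.19 with the cardiomyocyte list as a covariate (26 positive). Many of these targets, such as TNNI3, TNNT2 and MYL2, are themselves on the cardiomyocyte list, whose own median was -0.0034 in that fit. For them the covariate removes the shared fall by construction, so the turn is not a result about the targets. NPPB and NPPA, the natriuretic peptides that the ventricle makes again under load, had the largest values, at 2.46 and 2.09 (adjusted p = 0.128 and 0.123).
NPPB ran from 64.1 to 1064 CPM in the border zone and from 4.75 to 147 CPM in the remote zone, and was higher in 5 of 6 animals. NPPA was higher in 4 of 6 animals, and MYL4, the atrial light chain, in 4 of 6, with a log2 fold change of 1.75 (adjusted p = 0.146). Leaving out 1 animal at a time gave 1.51 to 3.24 for NPPB, 1.61 to 2.67 for NPPA and 1.33 to 2.21 for MYL4, and without animals 1322 and 3622 they stood at 1.38, 3.26 and 2.94.
NPPA and MYL4 are also on the atrial marker list, whose mean exceeded the remote zone value in the border zone library of 6 of 6 animals (median difference 0.95 on the log2 scale), with sums of 707 to 1504 CPM against 489 to 910 CPM. Of its 8 tested genes 5 had positive and 3 negative log2 fold changes. In both edgeR fits 1 was called higher, SLN, beside 2.06% of all genes without the block and 0.289% with it. On this list 0 were called, with or without the block, when any 1 of animals 1323, 1623, 1922 and 3622 was left out, and 0 with the cardiomyocyte list as a covariate or among the 7 genes with at least 10 counts in every library. IRX4, a ventricular factor, ran from 4.40 to 26.7 CPM in the border zone and from 21.3 to 37.4 CPM in the remote zone, lower in 6 of 6 animals (log2 fold change -0.79, adjusted p = 0.176, and -0.59 without animal 1022 or -0.22 with the cardiomyocyte covariate). The part of atrial tissue in the NPPA and MYL4 values was not tested.

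Genes whose log2 CPM followed each member most closely over the 12 libraries were ranked by Pearson's r, as a description only, since the 2 libraries of an animal are not independent and all share the same scaling. HABP4 was most like NKX2-5 (r = 0.98), CACYBP most like HAND1 (0.97) and INPP5A most like HAND2 (0.97). UBQLN2 was most like TBX20 (0.99), LPGAT1 most like MEF2C (0.98), PTPRK most like MEF2A (0.98) and CRKL most like MEF2D (0.98). CEBPZ was most like GATA4 (0.98), MARS2 most like GATA6 (0.95) and PPP1R8 most like TBX5 (0.94).
Over the 8 libraries without animals 1322 and 3622 the r for LPGAT1 and MEF2C was 0.91 and that for UBQLN2 and TBX20 was 0.95. Within the set, NKX2-5 ran with HAND2 (r = 0.91) and HAND1 (0.86), and TBX20 with MEF2C (0.92) and MEF2D (0.90), while TBX20 and HAND1 had an r of -0.03.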

How the data were processed

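Counts of reads per gene were deposited by the authors as raw counts, 1 file per library. Reads from poly(A)-enriched, nondirectional libraries had been aligned with STAR to Sscrofa11.1 and assigned to Ensembl genes with featureCounts. Its options for reads that match several genes are not given in the sources used here. The 10 genes and all gene lists were chosen with earlier results of these data known.

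Symbols were paired with 15623 of 35682 identifiers. Genes were kept by filterByExpr (13844 genes) and scaled by TMM. Log2 CPM values used a prior count of 2. Border and remote zone were compared with edgeR 4.0.16 in R 4.3.3 (robust quasi-likelihood fit, region only), with 95% confidence intervals and an adjusted p under 0.05 as the threshold. Alternatives were the animal as a replicate block, DESeq2 1.42.0, other scalings and filters, no mitochondrial genes, the cardiomyocyte list as a covariate and each animal left out. A fit without animals 1322 and 3622, a length slope per library and the blocked fits without 1 animal were added after seeing the data. Companion genes named are the 3 of each list with the largest log2 fold change, since none was called, others being named after their values were seen.

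Both libraries of a number come from 1 pig, so the numbers pair them (mean r of deviations across genes 0.345, over 0.1 in 4 of 6 pairs). No 2 libraries agreed within sampling noise. With 1 piece of tissue per zone and animal, the spread between pieces of the same zone was not measured. The edgeR fit with region only and DESeq2 treat the 2 libraries of a pig as independent and ignore the pairing. Blocked fits and exact tests measure the spread of the within-animal differences. Exact tests changed the sign of within-animal differences over 64 patterns. The fits were tested on simulated data. Exon lengths, positions and promoters are from RefSeq on Sscrofa11.1, and lengths were found for 92.9% of tested genes with a symbol. PCR copies were not told apart. MYH7, TTN, MB and LDB3 had no identifier in the symbol table and were not analysed here. The promoter of 1 member is not reported here.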

Additional observations from a re-analysis of the deposited data

Results flagged for a closer look

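Of the 20 sets of 6 libraries compared (each of the 10 genes in each zone), 1 held a library far from the rest. NKX2-5 in the border zone library of animal 1022 stood at 6.23 log2 CPM while the next lowest border zone library stood at 7.29, a gap of 0.678 of the whole range and above the 95% critical value of Dixon's test for 6 libraries. Chance alone gives such a gap in about 1 in 20 sets. The same library had the lowest mean over the cardiomyocyte list, at 9.87 log2 CPM, and the part of this in the NKX2-5 level was not tested.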

How the results depend on the processing

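Log2 fold changes of the 10 genes kept their sign and side of the threshold under 213 changes of setting, gained a call under 4 and changed sign under 23. All changes of sign were in TBX20, MEF2A, MEF2C and MEF2D, and the cause was not tested. TBX20 turned to 0.11 in the replicate block. MEF2A turned to 0.11 with library totals only and 0.040 with the cardiomyocyte list as a covariate, and MEF2D to 0.034 with library totals only. With the length slope as a covariate these 3 were instead farther below 0, at -0.78 for TBX20 (-1.10 with the replicate block), -0.41 for MEF2A and -0.49 for MEF2D. The short members NKX2-5, HAND1 and HAND2 stood at -0.61, -0.48 and -0.52 with that covariate (adjusted p = 0.375, 0.400 and 0.388 in edgeR). MEF2C turned to -0.020 in DESeq2, -0.0095 with DESeq2 size factors, -0.021 with no filter, -0.13 without animals 1322 and 3622 (-0.15 with the replicate block) and -0.30 with the length slope as a covariate (-0.13 with the replicate block). With each animal left out, with or without the block, TBX20 ran from -0.66 to 0.51, MEF2A from -0.23 to 0.0019 and MEF2C from -0.079 to 0.18.

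Of the 10 genes, 2 were called by DESeq2 and 0 to 2 with an animal left out. Of all genes, 287 were called, against 41 with the replicate block, 1719 by DESeq2, 1551 with library totals only, 139 with no filter, 149 with at least 10 counts in every library and 40 with the cardiomyocyte list as a covariate. With animals left out the count ran from 0 to 856, and the 0 without animals 1623 or 3622 held under the block too. Without animals 1322 and 3622 it was 6 (0 with the replicate block), and with the length slope 1 (0 with the replicate block). On the partner list 2 genes were called by DESeq2, 3 with library totals only and 0 to 1 with an animal left out. On the list of other factors these numbers were 6, 6 and 0 to 2, and on the target list 1, 2 and 0 to 2.

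Relative to RYR2 and ACTN2, 2 of the 4 genes planned as that reference with an identifier, the mean border minus remote difference turned from 0.40 to -0.057 for GATA4, from 0.36 to -0.10 for GATA6, from 0.17 to -0.29 for TBX5, from 0.033 to -0.43 for HAND1 and from 0.22 to -0.24 for HAND2. With an animal left out, the mean NKX2-5 difference relative to the cardiomyocyte list ran from -0.11 to 0.064 and that of HAND1 from -0.14 to 0.10, and no p under 0.0625 was possible with 5 animals. The lowest member count was 73, and the part of depth in these results was not tested.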
